A study of Homo sapiens with 21 samples.

Results

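The extracellular matrix and mesenchymal genes of Hs578T cells were followed across 7 treatment groups. Hs578T, a cell line of triple-negative breast cancer, is an established model of mesenchymal tumour cells. The set holds 55 named genes of the 28395 in the count table, and 54 had enough counts to be among the 16036 genes tested. The 55 genes were chosen by symbol for their known function, with earlier results of these data known. They comprise 5 fibrillar collagens, 8 other collagens, 12 glycoproteins and proteoglycans, 4 matrix enzymes, 8 proteases, 4 genes for protease inhibitors and a protease receptor, 6 genes of the TGF-beta pathway and endothelin, 2 integrins and 6 mesenchymal genes. Cells of WT genotype were collected 8 h after addition of DMSO, 0.1 μM THZ531, 3.16 μM lapatinib, 1 μM nilotinib, 0.1 μM THZ531 together with 3.16 μM lapatinib, 0.1 μM THZ531 together with 1 μM nilotinib, or 1 μM THZ531. THZ531 inhibits CDK12 and CDK13, the kinases that phosphorylate RNA polymerase II during elongation, and lapatinib and nilotinib are tyrosine kinase inhibitors. Each group had 3 replicates, which gave 21 libraries of polyA RNA, and the comparisons address whether the low dose of THZ531 with either inhibitor changes transcription as the high dose does. The 2 combinations and 1 μM THZ531 are called the 3 strong treatments here. All of the cells belong to 1 cell line, so every difference is a difference within that line.

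The extracellular matrix is a network of secreted proteins that fixes cells in place and stores growth factors. Fibrillar collagens give it tensile strength, fibronectin, laminins and thrombospondins link it to cell surface integrins, lysyl oxidases cross-link it, and proteases such as the matrix metalloproteinases, the ADAMTS enzymes and the plasminogen activators cut it, held in check by the tissue inhibitors of metalloproteinases. TGF-beta is a main inducer of matrix genes, and the transcription factors SNAI2, TWIST1, ZEB1 and ZEB2 maintain the mesenchymal state in which cancer cells express vimentin and N-cadherin in place of epithelial adhesion genes.

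The libraries held 97612207 to 112229052 counts each, of which the members took 3.54% to 5.66%. Levels are given as CPM after TMM normalization, which scales each library so that most genes do not change between libraries. The 8 markers of mesenchymal breast cancer lines all exceeded 1 CPM in DMSO, with group means between 41.98 CPM for ZEB2 and 6845 CPM for VIM. Of 12 epithelial markers only KRT8 and KRT18 exceeded 1 CPM in DMSO, at 20.8 and 83.7 CPM, while CDH1 reached 0.205 CPM and KRT19 was at 0. The summed level of the epithelial markers was 105.5 to 105.8 CPM in DMSO and 154.8 to 197.5 CPM with the strong treatments. That of the mesenchymal markers, which are all members except AXL, was higher too, at 15670 to 17860 CPM in DMSO and 21450 to 25490 CPM with the strong treatments. These sums are on the TMM scale and follow the most abundant genes, KRT18 for the first and VIM, COL1A2 and SPARC for the second. ZEB2 went the other way, to means of 11.51, 12.15 and 20.55 CPM with the lapatinib combination, the nilotinib combination and 1 μM THZ531. The part of either marker set in the results below was not tested. The study describes these RNA samples as derived from independent experiments, and the labels do not tie a replicate number to an experiment.

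Hs578T cells expressed structural matrix genes at high levels before any drug was added. When levels were compared per exonic base as RPKM, VIM ranked 8 of 15410 genes in DMSO at 1322 RPKM, COL1A1 ranked 12 at 895 RPKM, SPARC ranked 22 at 610 RPKM and COL6A1 ranked 34 at 475 RPKM. COL1A2 and COL6A2 followed at 323 and 318 RPKM. At the other end ZEB2, ADAMTS5, LAMA4, MMP1 and THBS2 lay between 0.108 and 1.60 RPKM. FBN2 had at most 6 counts in any library and was not tested.

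Low-dose THZ531 and both inhibitors alone gave few calls among the members, whereas the 3 strong treatments moved most of the members tested. With 0.1 μM THZ531, 0 of 54 members were lower and 1 was higher than in DMSO, beside 4.31% and 1.78% of all genes tested, at an adjusted p under 0.05 in edgeR's quasi-likelihood test. At an unadjusted p under 0.05, 8 members differed there, a count without its match over all genes. Lapatinib alone lowered 1 member and raised 1, beside 0.0561% and 0.256% of all genes. Nilotinib alone lowered 3 and raised 1, beside 0.0998% and 0.243%. The lapatinib combination lowered 9 members and raised 27, beside 37.8% lower and 34.3% higher among all genes. The nilotinib combination lowered 9 and raised 26, beside 37.3% and 33.7%, and 1 μM THZ531 lowered 8 and raised 28, beside 36.8% and 33.1%. As shares of the 54 members, 16.7%, 16.7% and 14.8% fell with these 3 treatments and 50%, 48.1% and 51.9% rose. These shares were not tested against those of all genes, and the order of the shares of rises turned with mitochondrial scaling, as given below.

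**Figure D1:**
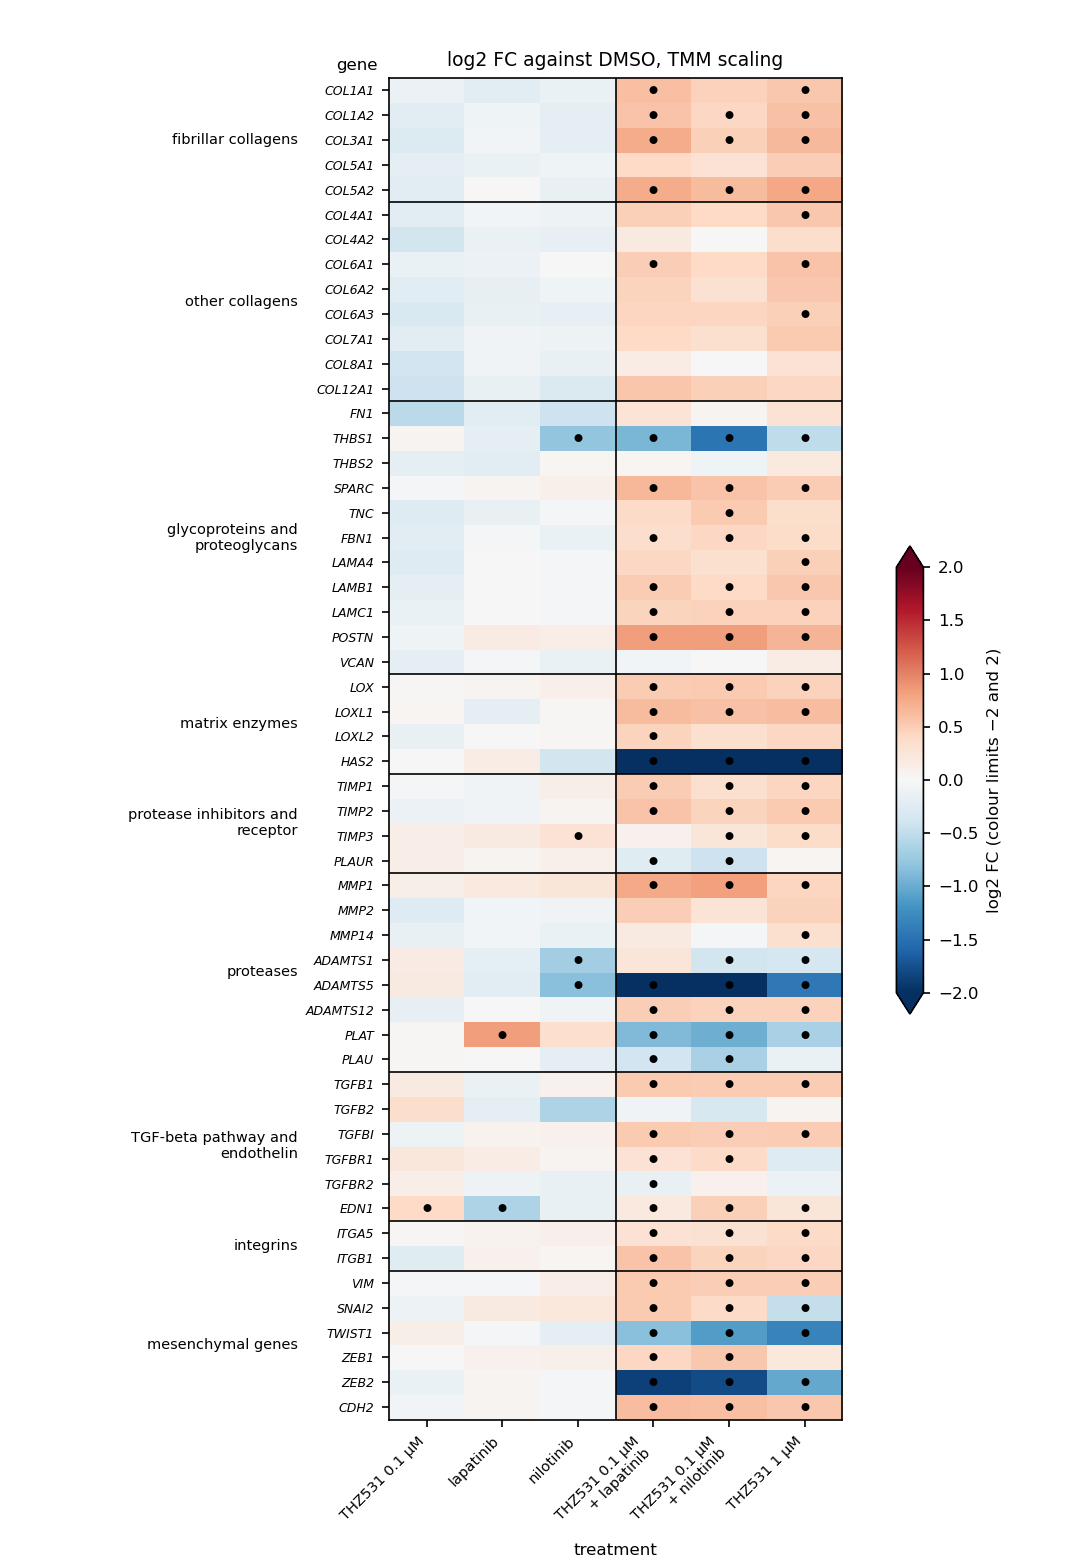
Heat map of the log2 FC against DMSO for the 54 members tested, ordered by role, with 1 column for each of the 6 treatments and a dot where the adjusted p was under 0.05 in edgeR's quasi-likelihood test. The 3 left columns hold 1, 2 and 4 dots, and the 3 right columns hold 36, 35 and 36, with the deepest blue at HAS2, ADAMTS5, ZEB2, TWIST1, PLAT and THBS1.

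The members that rose did so by small amounts, and only falls were large. None of the 54 members rose by more than 1 on the log2 scale with any strong treatment, although 7.9%, 6.54% and 5.77% of all genes did with the lapatinib combination, the nilotinib combination and 1 μM THZ531. Falls of more than 1 on this scale were found for 3, 5 and 4 members, beside 21.3%, 20.8% and 18.9% of all genes. The members that fell with all of the strong treatments were 6, namely ADAMTS5, HAS2, PLAT, THBS1, TWIST1 and ZEB2, and these lay below 0 with TMM and with mitochondrial scaling. By contrast, 21 members rose with all 3 on the TMM scale, among them COL1A2, COL3A1, COL5A2, SPARC, POSTN, LOX, TIMP1, VIM and CDH2, and 11 members were called with none of the 3 on that scale. Shares of all genes with the same calls in all 3 were not counted, so these counts stand without a comparison.

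The direction of the rises depended on the scaling. On the TMM scale the median log2 FC of the members was 0.42 with the lapatinib combination, 0.38 with the nilotinib combination and 0.42 with 1 μM THZ531, beside −0.01 for all genes in each. When libraries were scaled to the 13 mitochondrially encoded mRNAs, which are made by the mitochondrial RNA polymerase and not by RNA polymerase II, the median of all genes moved to −0.69, −0.63 and −0.55, and that of the members to −0.26, −0.25 and −0.13. On that scale 20, 18 and 16 members were lower, beside 58.4%, 55.9% and 52.5% of all genes, and 0 were higher with any strong treatment, beside 5.3%, 4.83% and 4.35%. The mitochondrial share of counts varied between replicates, for instance from 1.36% to 1.78% with 1 μM THZ531. The part of this spread in the calls on that scale was not tested. A change of scaling shifts all genes of a comparison alike, so the distance of the members' median above that of all genes, 0.43, 0.39 and 0.42 on this scale, stays nearly the same by construction. Of the 21 members that rose with all 3 treatments on the TMM scale, COL5A2 and POSTN stayed above 0 with mitochondrial scaling in all 3 and 14 lay below 0 in all 3. In what follows, "rose" is a statement on the TMM scale, that is, relative to most genes of the same library. A call, or the lack of a call, is also one with TMM unless another scaling is named. With lapatinib and nilotinib alone the median of all genes moved by less, to −0.15 and −0.18.

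**Figure D2:**
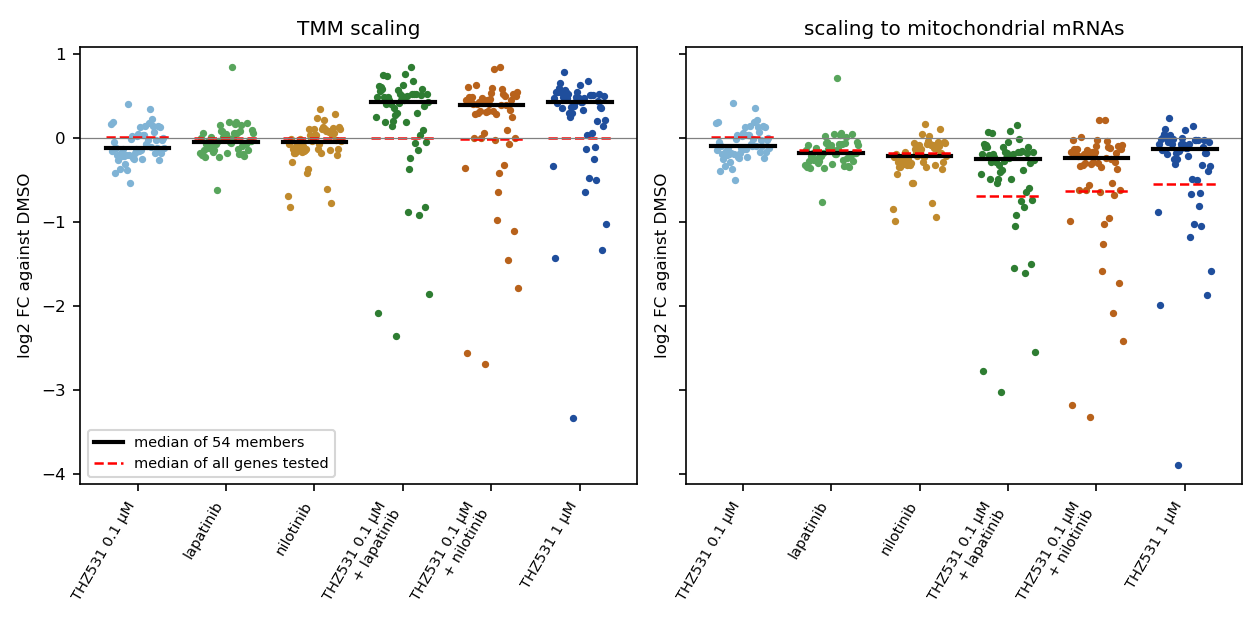
Log2 FC against DMSO of the 54 members tested (points, 1 per gene) for each of the 6 treatments, with TMM scaling on the left and scaling to mitochondrial mRNAs on the right. Solid lines are the members' median and dashed lines the median of all genes tested; with the 3 strong treatments the members' median is 0.42, 0.38 and 0.42 on the left and −0.26, −0.25 and −0.13 on the right, and its distance to the dashed line is nearly the same on both sides by construction.

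Of the 13 collagens, the main structural proteins of the matrix, 5 rose with the lapatinib combination, 3 with the nilotinib combination and 7 with 1 μM THZ531, and 0 fell, beside 34.3%, 33.7% and 33.1% of all genes higher. Their median log2 FC was 0.48, 0.40 and 0.54 on the TMM scale and −0.20, −0.22 and 0.00037 with mitochondrial scaling. COL5A2, which co-assembles with type I collagen fibrils, stood at 183, 227 and 184 CPM in DMSO, at 256, 363 and 371 CPM with the lapatinib combination, at 246, 310 and 364 CPM with the nilotinib combination and at 392, 315 and 312 CPM with 1 μM THZ531. All 9 of these treated libraries lay above all 3 DMSO libraries. Its log2 FC was 0.74 ± 0.17 (SE), 0.63 ± 0.17 and 0.78 ± 0.17, with edgeR adjusted p-values of 0.000756, 0.00286 and 0.000493. COL3A1, the type III collagen of pliable tissues, stood at 180.5, 237 and 178 CPM in DMSO, 253, 361 and 386 CPM with the lapatinib combination, 229.8, 271 and 332 CPM with the nilotinib combination and 363, 290.2 and 283 CPM with 1 μM THZ531. Its log2 FC was 0.75, 0.48 and 0.65 on the TMM scale and 0.06, −0.14 and 0.10 with mitochondrial scaling, of which the nilotinib combination's TMM value came with libraries that overlapped DMSO and lost its call without DMSO replicate 1 or 3 or replicate 3 of the nilotinib combination (adjusted p of up to 0.152).

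COL1A1 (gene ID 1277, GRCh38 chromosome 17, 50184101 to 50201631, minus strand) encodes the alpha 1 chain of type I collagen. It stood at 6893, 9630 and 7657 CPM in DMSO, at 8289, 13800 and 14730 CPM with the lapatinib combination, at 7891, 11940 and 13390 CPM with the nilotinib combination and at 12520, 11280 and 11440 CPM with 1 μM THZ531. In each combination 1 library lay within the range of DMSO, and with 1 μM THZ531 none did. It rose by 0.61 ± 0.21 on the log2 scale with the lapatinib combination (edgeR, adjusted p = 0.0135) and by 0.54 ± 0.21 with 1 μM THZ531 (adjusted p = 0.0257), while 0.46 ± 0.21 with the nilotinib combination did not pass (adjusted p = 0.0555). With mitochondrial scaling these values were −0.08, 0.0068 and −0.17 in the same order. The call with the lapatinib combination was lost without DMSO replicate 1 or replicate 2 or 3 of that combination (adjusted p of up to 0.0823), and the call with 1 μM THZ531 without DMSO replicate 1 or 3 or replicate 1 of that group (adjusted p of up to 0.105).

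The alpha 2 chain of type I collagen is encoded by COL1A2, which stood at 3167, 3996 and 3324 CPM in DMSO, 4089, 5713 and 5807 CPM with the lapatinib combination, 3995, 4726 and 5325 CPM with the nilotinib combination and 5619, 5210 and 4899 CPM with 1 μM THZ531. All but 1 of these treated libraries lay above DMSO, and the log2 FC was 0.57, 0.42 and 0.58 on the TMM scale and −0.11, −0.20 and 0.04 with mitochondrial scaling. COL6A1 and COL6A3 encode chains of the beaded type VI collagen. COL6A1 stood at 2287, 3087 and 2523 CPM in DMSO, 2529, 4217 and 4325 CPM with the lapatinib combination, 2579, 3788 and 4080 CPM with the nilotinib combination and 4298, 3849 and 3590 CPM with 1 μM THZ531. COL6A3 stood at 2666, 3842 and 2731 CPM in DMSO, 2834, 5050 and 4529 CPM with the lapatinib combination, 3204, 4464 and 4720 CPM with the nilotinib combination and 4992, 4125 and 3729 CPM with 1 μM THZ531. For both genes replicate 1 of each combination lay within the DMSO range, and so did replicate 3 of 1 μM THZ531 for COL6A3. COL8A1, a short-chain collagen of basement membranes, stood at 46.5, 55 and 47.8 CPM in DMSO, 42.4, 62.9 and 59.6 CPM with the lapatinib combination, 41.2, 51.8 and 56.0 CPM with the nilotinib combination and 67.1, 61.9 and 54.3 CPM with 1 μM THZ531. Each of these groups overlapped DMSO or lay on both sides of it. COL12A1, which decorates collagen fibrils, stood at 108, 170.1 and 104 CPM in DMSO, 113, 246 and 204 CPM with the lapatinib combination, 124, 197 and 213 CPM with the nilotinib combination and 226, 147 and 137 CPM with 1 μM THZ531. Each treated group had at least 1 library within the DMSO range.

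The spread between replicates had a direction that the groups shared. Replicate 1 held the lowest level of 13 of 13 collagens with 0.1 μM THZ531, lapatinib, nilotinib and both combinations, and of 11 of 13 in DMSO, but with 1 μM THZ531 it held the highest level of 13 of 13. The pooled SD within groups on the log2 CPM scale had a median of 0.302 for the collagens and 0.188 for the 54 members, beside 0.114 for the 8794 genes tested with a mean log2 CPM over 3. VIM had the smallest SD at 0.0363 and FN1 the largest at 0.588. Library deviations from the group mean correlated across 8722 genes with transcript length, with Spearman's rho between −0.479 and 0.495 from library to library, and with the GC content of transcripts, with rho between −0.694 and 0.576. These are correlations across genes of the same library, which are not independent replicates. The part of length and GC content in the collagen values was not tested. Without replicate 1 of any group, a choice made after these values were seen, the members that rose numbered 39, 37 and 26 with the 3 strong treatments. Without replicate 1 of the combinations alone they numbered 38, 36 and 36. Shares of all genes were not counted for these fits.

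With the single drugs no collagen passed the test in the fit without a replicate block. All 13 collagens lay below DMSO with 0.1 μM THZ531, between −0.42 and −0.12 on the log2 scale, and none passed. With nilotinib all 13 also lay below 0, between −0.29 and −0.01, and none passed. FN1, which encodes fibronectin, ranged from 1029 to 2013 CPM among the DMSO libraries and from 781 to 2257 CPM with the lapatinib combination. Its groups overlapped throughout and it was not called with any treatment, with a log2 FC of 0.27 ± 0.40, 0.06 ± 0.40 and 0.30 ± 0.40 with the 3 strong treatments.

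Among the glycoproteins, POSTN and SPARC rose and THBS1 fell. POSTN, which encodes periostin, a collagen-binding protein, stood at 29.2, 34.6 and 29.9 CPM in DMSO, at 45.3, 61.3 and 61.2 CPM with the lapatinib combination, at 48.1, 55.5 and 63.5 CPM with the nilotinib combination and at 49.9, 48.3 and 51.1 CPM with 1 μM THZ531. No treated library of these overlapped DMSO. The log2 FC of 0.84 ± 0.13, 0.83 ± 0.13 and 0.67 ± 0.13 included the largest rise of any member with both combinations (edgeR, adjusted p = 1.33e-05, 1.53e-05 and 0.000176), and with mitochondrial scaling the 3 values were 0.16, 0.21 and 0.14. SPARC, a collagen-binding protein, stood at 2703, 2967 and 2810 CPM in DMSO, 4160, 4616 and 4725 CPM with the lapatinib combination, 4145, 4167 and 4347 CPM with the nilotinib combination and 3969, 4056 and 4037 CPM with 1 μM THZ531, with no overlap with DMSO. It rose by 0.67, 0.58 and 0.51 on the TMM scale and lay at −0.01, −0.04 and −0.03 with mitochondrial scaling. LAMB1, a laminin chain, stood at 160.5, 185 and 164 CPM in DMSO, 215, 253 and 259 CPM with the lapatinib combination, 217, 224 and 232 CPM with the nilotinib combination and 265, 247 and 231 CPM with 1 μM THZ531. LAMC1, its partner chain, stood at 369.7, 449 and 374 CPM in DMSO, 424, 615 and 584 CPM with the lapatinib combination, 462, 561 and 612 CPM with the nilotinib combination and 608, 527 and 514 CPM with 1 μM THZ531. FBN1, the main microfibril protein, stood at 864, 1008 and 846 CPM in DMSO, 982, 1278 and 1205 CPM with the lapatinib combination, 1081, 1267 and 1288 CPM with the nilotinib combination and 1267, 1132 and 1091 CPM with 1 μM THZ531. LAMB1 did not overlap DMSO with any strong treatment, whereas LAMC1 and FBN1 each had 1 library of the lapatinib combination within the DMSO range. The 3 genes rose with all 3 treatments, by 0.35 to 0.55, all but LAMB1 with 1 μM THZ531 below 0 with mitochondrial scaling. TNC, which encodes the adhesion-modulating protein tenascin C, stood at 45.6, 63.5 and 48.3 CPM in DMSO, 48.8, 84.2 and 71.2 CPM with the lapatinib combination, 59.2, 79.5 and 86.6 CPM with the nilotinib combination and 75.8, 63.7 and 61.6 CPM with 1 μM THZ531, and was called with the nilotinib combination alone, at 0.52 on the TMM scale and −0.10 with mitochondrial scaling. Over the 11 members of this role that were tested, 5, 6 and 6 rose and 1 fell with each treatment, beside 34.3%, 33.7% and 33.1% of all genes higher and 37.8%, 37.3% and 36.8% lower. THBS2 and VCAN were called with none on the TMM scale. Calls with mitochondrial scaling included THBS2 lower with the lapatinib combination at −0.65 (edgeR, adjusted p = 0.0153). They also included VCAN lower with the nilotinib combination at −0.62 and 1 μM THZ531 at −0.40 (adjusted p = 8.88e-05 and 0.00829).

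THBS1 (gene ID 7057, GRCh38 chromosome 15, 39581079 to 39599466, plus strand) encodes thrombospondin 1, a secreted protein that activates latent TGF-beta, and its promoter is shown because it was the sole member among the glycoproteins called lower on the TMM scale and was so in 4 of the treatments. The sequence is the RefSeq promoter on GRCh38.p14, chr15:39580829-39581128 on the plus strand, from 250 bases before the transcription start, with the only match of the motifs searched, a TEAD motif (GGAATG) beginning 46 bases before the start, in capitals.
THBS1: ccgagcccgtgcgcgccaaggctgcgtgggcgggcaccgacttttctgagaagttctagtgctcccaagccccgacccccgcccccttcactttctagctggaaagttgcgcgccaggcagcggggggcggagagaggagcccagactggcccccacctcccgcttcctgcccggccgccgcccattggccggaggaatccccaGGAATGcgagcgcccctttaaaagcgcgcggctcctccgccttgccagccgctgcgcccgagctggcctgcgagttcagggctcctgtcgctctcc
THBS1 stood at 464, 481 and 454 CPM in DMSO, at 193, 280 and 266 CPM with the lapatinib combination, at 134, 176 and 200 CPM with the nilotinib combination and at 381, 308 and 300 CPM with 1 μM THZ531. All of these libraries lay below DMSO, and the nilotinib combination reached the lowest values. Its log2 FC was −0.92 ± 0.16 with the lapatinib combination, −1.45 ± 0.16 with the nilotinib combination and −0.50 ± 0.16 with 1 μM THZ531, with edgeR adjusted p-values of 2.64e-05, 8.24e-08 and 0.00742. The call with 1 μM THZ531 was lost with upper-quartile scaling, at −0.30 (adjusted p = 0.0769). With nilotinib alone it was already at 213, 295 and 305 CPM, a log2 FC of −0.78 ± 0.16 (adjusted p = 0.0281). That call was lost without any 1 DMSO library or nilotinib replicate 1, with adjusted p-values of up to 0.237. With lapatinib alone THBS1 was at 352, 419 and 448 CPM and was not called.

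Among the matrix enzymes HAS2, which makes hyaluronan, showed the largest fall of any member. Its level was 275, 268 and 250 CPM in DMSO, 284, 266 and 237 CPM with 0.1 μM THZ531, 291, 285 and 307 CPM with lapatinib and 179, 230 and 203 CPM with nilotinib. It was 45.4, 65.7 and 43.6 CPM with the lapatinib combination, 36.9, 44.5 and 40.7 CPM with the nilotinib combination and 30.5, 16.3 and 31.5 CPM with 1 μM THZ531. All 9 strongly treated libraries lay below every other library. HAS2 fell with a log2 FC of −2.36 ± 0.19, −2.70 ± 0.19 and −3.34 ± 0.20 (edgeR, adjusted p = 7.29e-10, 1.28e-10 and 1.22e-11), which is 5.13, 6.50 and 10.2 times lower. LOX and LOXL1 encode lysyl oxidases that cross-link collagen and elastin. LOX stood at 170.4, 154 and 158 CPM in DMSO, 219.6, 230.4 and 232 CPM with the lapatinib combination, 208, 226 and 260.5 CPM with the nilotinib combination and 239, 202 and 224 CPM with 1 μM THZ531. LOXL1 stood at 224, 252 and 238 CPM in DMSO, 361, 362 and 381 CPM with the lapatinib combination, 344, 366 and 362 CPM with the nilotinib combination and 351, 381 and 366 CPM with 1 μM THZ531. No strongly treated library of either overlapped DMSO. They rose with all 3 treatments by 0.47 to 0.63, and with mitochondrial scaling LOX lay between −0.19 and −0.09 and LOXL1 between −0.05 and 0.09. LOXL2, of the same family, was called with the lapatinib combination alone, at 0.45 ± 0.19, and lost the call in 6 of 21 fits without 1 library, among them those without DMSO replicate 1 or 3 and replicate 2 or 3 of that combination (adjusted p of up to 0.197).

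ADAMTS5 (gene ID 11096, GRCh38 chromosome 21, 26917922 to 26967088, minus strand), an aggrecanase that cuts proteoglycans, was at 14.3, 15.0 and 13.9 CPM in DMSO, at 2.45, 4.26 and 3.44 CPM with the lapatinib combination, at 1.98, 2.66 and 2.69 CPM with the nilotinib combination and at 6.75, 3.88 and 5.41 CPM with 1 μM THZ531. It fell with a log2 FC of −2.09 ± 0.18, −2.56 ± 0.19 and −1.43 ± 0.18 (edgeR, adjusted p = 3.10e-09, 2.41e-10 and 5.41e-07). With nilotinib alone it stood at 7.21, 8.82 and 8.28 CPM, below all DMSO libraries, and was called lower at −0.83 ± 0.17 (adjusted p = 0.0371), a call lost in 14 of 21 fits without 1 library. ADAMTS1, its neighbour on chromosome 21 with 72512 bp between the genes, cuts versican and aggrecan. It was also called lower with nilotinib alone, from 60.7, 68.2 and 58.2 CPM to 33.3, 41.7 and 40.9 CPM, at −0.69 ± 0.14 (adjusted p = 0.0405, lost in 15 of 21 such fits). With the lapatinib combination ADAMTS1 did not fall with ADAMTS5 on the TMM scale: it stood at 61.7, 88.6 and 71.8 CPM and was not called. With mitochondrial scaling it was called lower there at −0.43 (edgeR, adjusted p = 0.0171). On the TMM scale it was lower with the nilotinib combination at −0.37 ± 0.14 (adjusted p = 0.0294) and with 1 μM THZ531 at −0.33 ± 0.14 (adjusted p = 0.0463). The call with the nilotinib combination was lost without DMSO replicate 2 or replicate 1 of the combination (adjusted p of up to 0.142), and that with 1 μM THZ531 in 14 of 21 fits without 1 library. ADAMTS12, which belongs to the same family, stood at 202, 238 and 201 CPM in DMSO, 236, 328 and 333 CPM with the lapatinib combination, 253, 299.7 and 325 CPM with the nilotinib combination and 323, 280.4 and 281 CPM with 1 μM THZ531. It rose with all 3 strong treatments by 0.45 to 0.49 on the TMM scale and lay between −0.20 and −0.08 with mitochondrial scaling.

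PLAT and PLAU encode the tissue-type and urokinase-type plasminogen activators, and PLAUR encodes the urokinase receptor. PLAT stood at 147, 164 and 148 CPM in DMSO and rose with lapatinib alone to 274, 268 and 280 CPM, the largest rise of any member with a single inhibitor (log2 FC 0.84 ± 0.098, edgeR adjusted p = 0.00027). When 0.1 μM THZ531 was added to lapatinib it stood at 90.3, 84.6 and 74.1 CPM, below every DMSO library, a log2 FC of −0.88 ± 0.098 (adjusted p = 1.12e-07). With the nilotinib combination it was at 86.6, 78.2 and 67.2 CPM and with 1 μM THZ531 at 90.9, 110 and 90.6 CPM, with a log2 FC of −0.98 and −0.65. PLAU fell with both combinations, from 172, 188 and 183 CPM to 130, 153 and 136 CPM with lapatinib and 118, 120 and 110 CPM with nilotinib, with a log2 FC of −0.38 and −0.65, and at −0.14 it was not called with 1 μM THZ531. PLAUR stood at 54.3, 66.5 and 57.7 CPM in DMSO, 51.5, 49.6 and 49.5 CPM with the lapatinib combination, between 41.4 and 48 CPM with the nilotinib combination and 59.7, 61.7 and 61.5 CPM with 1 μM THZ531. On the TMM scale it lay below all DMSO libraries with both combinations and within their range with 1 μM THZ531, with a log2 FC of −0.24, −0.42 and 0.03, of which the first lost its call without DMSO replicate 2 (adjusted p = 0.0585). With 1 μM THZ531 PLAUR was called lower with mitochondrial scaling at −0.50 (edgeR, adjusted p = 0.00238) and by library size alone at −0.22 (adjusted p = 0.0109). Other genes overlap 31% of the exonic bases of PLAU, and since the libraries were unstranded reads of an overlapping partner cannot be told apart.

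Of the metalloproteinases, MMP1, an interstitial collagenase, rose from 1.06, 1.03 and 0.944 CPM to 1.54, 1.80 and 1.78 CPM with the lapatinib combination and to 2.26, 1.64 and 1.45 CPM with the nilotinib combination, a log2 FC of 0.76 ± 0.18 and 0.82 ± 0.17 on the TMM scale and of 0.07 and 0.21 with mitochondrial scaling. The call with 1 μM THZ531, at 0.42 on the TMM scale and −0.12 with mitochondrial scaling, was lost without any 1 library of DMSO or of 1 μM THZ531, with adjusted p-values of up to 0.107. MMP14, the membrane-bound activator of MMP2, stood at 202, 252 and 209.9 CPM in DMSO, 215, 266 and 273 CPM with the lapatinib combination, 196, 228 and 227 CPM with the nilotinib combination and 296, 273 and 260.0 CPM with 1 μM THZ531. It was called higher with 1 μM THZ531 alone (0.32 on the TMM scale, −0.22 with mitochondrial scaling), a call lost without DMSO replicate 1 or 3 or replicate 1 of that group, and MMP2 was not called with any treatment. TIMP1 and TIMP2 inhibit metalloproteinases. TIMP1 stood at 97.3, 117 and 108 CPM in DMSO, 127, 163 and 167 CPM with the lapatinib combination, 121, 144 and 139 CPM with the nilotinib combination and 147, 144 and 142 CPM with 1 μM THZ531. TIMP2 stood at 406, 514 and 423 CPM in DMSO, 469.7, 762 and 772 CPM with the lapatinib combination, 467, 667 and 691 CPM with the nilotinib combination and 726, 611 and 586 CPM with 1 μM THZ531. TIMP1 did not overlap DMSO, and TIMP2 had replicate 1 of each combination within its range. Both rose with all 3 strong treatments by 0.33 to 0.58 on the TMM scale, with values between −0.29 and −0.03 with mitochondrial scaling. The TIMP2 calls were lost with the nilotinib combination without DMSO replicate 1 or 3 or replicate 2 or 3 of the combination (adjusted p of up to 0.132), and with 1 μM THZ531 without replicate 1 of DMSO or of that group (adjusted p of up to 0.0687). TIMP3 rose with nilotinib alone from 89.8, 88.9 and 85.1 CPM to 115, 102 and 105 CPM, by 0.28 ± 0.060 on the TMM scale and 0.10 with mitochondrial scaling (edgeR, adjusted p = 0.0435 with TMM), and this call was lost in 14 of 21 fits without 1 library. TIMP3 was also called higher with the nilotinib combination and 1 μM THZ531, at 0.24 and 0.37 on the TMM scale and −0.38 and −0.18 with mitochondrial scaling.

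Within the TGF-beta pathway the ligand TGFB1 rose and the ligand TGFB2 did not. TGFB1 stood at 179, 188 and 181 CPM in DMSO, at 249, 253 and 283 CPM with the lapatinib combination, at 246, 265 and 273 CPM with the nilotinib combination and at 253, 263 and 265 CPM with 1 μM THZ531. No treated library overlapped DMSO, and the log2 FC was 0.52, 0.52 and 0.51 with an SE of 0.065 each on the TMM scale and −0.17, −0.11 and −0.03 with mitochondrial scaling. TGFBI, a secreted protein induced by TGF-beta, stood at 339, 399 and 366 CPM in DMSO, 414, 586 and 588 CPM with the lapatinib combination, 463, 516 and 577 CPM with the nilotinib combination and 514, 505 and 547 CPM with 1 μM THZ531, with no overlap with DMSO. Its log2 FC was 0.52, 0.50 and 0.50 on the TMM scale and −0.16, −0.13 and −0.03 with mitochondrial scaling. TGFB2 lay at 56.8, 53.6 and 50.3 CPM in DMSO and at 28.8, 37.4 and 38.7 CPM with nilotinib alone, a log2 FC of −0.61 ± 0.15 that did not pass (edgeR, adjusted p = 0.0878) although the groups did not overlap. Other genes overlap 34.2% of its exonic bases. The receptor TGFBR1 stood at 53.6, 43.96 and 48.3 CPM in DMSO. It rose with both combinations, at 0.30 and 0.39 on the TMM scale and at −0.39 and −0.25 with mitochondrial scaling, and lay at −0.26 with 1 μM THZ531 without a call. Its call with the lapatinib combination was lost without DMSO replicate 2 or 3 or replicate 2 of the combination (adjusted p of up to 0.132). TGFBR2 was called lower with the lapatinib combination alone, at −0.14 ± 0.059, a call lost without DMSO replicate 1 or 3 or replicate 1 of that combination (adjusted p of up to 0.167).

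EDN1 (gene ID 1906, GRCh38 chromosome 6, 12230516 to 12297194, plus strand) encodes the precursor of endothelin 1, a vasoconstrictor peptide that TGF-beta induces, and was the sole member called with 0.1 μM THZ531. A RefSeq promoter of EDN1 on GRCh38.p14, chr6:12290111-12290410 on the plus strand, is shown because EDN1 responded in opposite directions to the separate drugs. It lies inside the gene span given above and is not the only entry. A TEAD motif and an E-box were also matched to EDN1 promoters and are absent from this sequence. Capitals mark the SMAD CAGA box on the other strand, beginning 87 bases before the start, and the TATA box, beginning 31 bases before it.
EDN1: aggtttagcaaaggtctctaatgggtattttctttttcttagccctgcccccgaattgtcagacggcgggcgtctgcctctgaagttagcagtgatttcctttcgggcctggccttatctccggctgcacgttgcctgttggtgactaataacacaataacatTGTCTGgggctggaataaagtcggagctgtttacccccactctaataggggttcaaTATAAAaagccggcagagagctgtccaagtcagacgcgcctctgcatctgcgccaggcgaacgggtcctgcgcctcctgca
EDN1 stood at 9.10, 8.33 and 7.90 CPM in DMSO, at 11.2, 11.8 and 10.6 CPM with 0.1 μM THZ531, at 5.56, 5.80 and 5.11 CPM with lapatinib and at 7.85, 7.83 and 7.24 CPM with nilotinib. Low-dose THZ531 raised it by 0.40 ± 0.082 on the log2 scale (edgeR, adjusted p = 0.00527), which did not pass with mitochondrial scaling at 0.41 (adjusted p = 0.129). With lapatinib its log2 FC was −0.62 ± 0.083 (adjusted p = 0.00109). In the lapatinib combination it was at 9.87, 9.53 and 9.56 CPM and in the nilotinib combination at 11.6, 11.7 and 11.9 CPM, both above all DMSO libraries. The log2 FC was 0.19 ± 0.082 and 0.48 ± 0.082 on the TMM scale, the first lost in 10 of 21 fits without 1 library, and −0.49 and −0.15 with mitochondrial scaling. With 1 μM THZ531 it was at 11.2, 9.51 and 9.21 CPM, a log2 FC of 0.24 on the TMM scale and −0.32 with mitochondrial scaling, and the call was lost without DMSO replicate 3 or replicate 1 of that group (adjusted p of up to 0.121).

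The integrin chains ITGA5 and ITGB1, which together form the main fibronectin receptor, rose with all 3 strong treatments on the TMM scale, ITGA5 by 0.30, 0.30 and 0.38 and ITGB1 by 0.57, 0.45 and 0.42. ITGB1 stood at 1158, 1296 and 1093 CPM in DMSO, 1368, 2134 and 1758 CPM with the lapatinib combination, 1421, 1624 and 1784 CPM with the nilotinib combination and 1859, 1491 and 1397 CPM with 1 μM THZ531, with no overlap with DMSO. With mitochondrial scaling all 6 values lay between −0.39 and −0.11. The ITGB1 call with 1 μM THZ531 was lost without replicate 1 of that group (adjusted p = 0.0671).

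The mesenchymal genes did not move as a block. VIM, which encodes vimentin, stood at 6657, 6709 and 7168 CPM in DMSO and at 9430 to 10120 CPM in the 9 strongly treated libraries, a log2 FC of 0.52, 0.49 and 0.49 with an SE of 0.039 each on the TMM scale and −0.17, −0.13 and −0.05 with mitochondrial scaling. CDH2, which encodes N-cadherin, stood at 541, 540.4 and 513 CPM in DMSO, 728, 862 and 847 CPM with the lapatinib combination, 703, 804 and 912 CPM with the nilotinib combination and 854, 717 and 741 CPM with 1 μM THZ531, without overlap with DMSO. It rose by 0.61, 0.60 and 0.54 on the TMM scale and lay at −0.07, −0.03 and −0.02 with mitochondrial scaling. The transcription factors TWIST1 and ZEB2 fell with all 3 strong treatments on both scales, whereas ZEB1 rose with both combinations (0.42 and 0.54 on the TMM scale, −0.26 and −0.09 with mitochondrial scaling) and was not called with 1 μM THZ531. ZEB1 stood at 207, 212 and 185 CPM in DMSO, 225, 312 and 272 CPM with the lapatinib combination, 250.3, 289 and 338 CPM with the nilotinib combination and 261, 220.5 and 218 CPM with 1 μM THZ531, above all DMSO libraries throughout. ZEB1 and ZEB2 are paralogs that both repress epithelial genes, and they went in opposite directions on the TMM scale.

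ZEB2 has the gene ID 9839 and lies on GRCh38 chromosome 2 from 144384081 to 144520119, minus strand. Its RefSeq promoter on GRCh38.p14, chr2:144520070-144520369 on the minus strand, is shown because ZEB2 fell while its paralog rose. It holds none of the 5 motifs searched, so no base is in capitals.
ZEB2: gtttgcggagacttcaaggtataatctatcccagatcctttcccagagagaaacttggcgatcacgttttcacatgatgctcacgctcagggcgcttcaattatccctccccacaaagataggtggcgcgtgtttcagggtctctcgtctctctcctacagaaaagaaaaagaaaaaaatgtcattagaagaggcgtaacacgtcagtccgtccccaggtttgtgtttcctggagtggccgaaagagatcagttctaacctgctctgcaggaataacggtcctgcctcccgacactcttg
ZEB2 stood at 44.8, 43.1 and 38.1 CPM in DMSO, at 10.2, 12.5 and 11.8 CPM with the lapatinib combination, at 9.68, 11.9 and 14.8 CPM with the nilotinib combination and at 24.1, 19.4 and 18.1 CPM with 1 μM THZ531. The combinations lay below the high dose in every library. It fell with a log2 FC of −1.87 ± 0.14, −1.79 ± 0.14 and −1.03 ± 0.13 (edgeR, adjusted p = 2.60e-10, 5.08e-10 and 1.13e-06). TWIST1, a basic helix-loop-helix factor of mesoderm, stood at 26.2, 29.4 and 28.02 CPM in DMSO, at 14.5, 17.3 and 15.2 CPM with the lapatinib combination, at 11.4, 13.1 and 14.2 CPM with the nilotinib combination and at 11.8, 8.43 and 12.9 CPM with 1 μM THZ531. No strongly treated library overlapped DMSO, and TWIST1 fell with a log2 FC of −0.83 ± 0.12, −1.11 ± 0.12 and −1.33 ± 0.12 (edgeR, adjusted p = 2.77e-06, 5.94e-08 and 5.64e-09).

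SNAI2, which encodes the repressor Slug, was the one member called in opposite directions among the strong treatments. It stood at 191, 186 and 187 CPM in DMSO, at 250, 275 and 285 CPM with the lapatinib combination, at 230, 247 and 259 CPM with the nilotinib combination and at 152, 104 and 148 CPM with 1 μM THZ531. All libraries of the combinations lay above DMSO and all of the high dose below it. The log2 FC was 0.52 ± 0.10, 0.38 ± 0.10 and −0.48 ± 0.10 on the TMM scale (edgeR, adjusted p = 0.00011, 0.0021 and 0.000282), and −0.17, −0.24 and −1.03 with mitochondrial scaling.

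Each combination was then set against 1 μM THZ531, which asks where a low dose with an inhibitor differs from a high dose alone. In the lapatinib combination 6 of the 54 members had a lower level than at the high dose and 6 a higher one, beside 16.1% and 12.8% of all genes, and in the nilotinib combination 7 were lower and 6 higher, beside 13% and 11.2%. SNAI2 showed the largest difference upwards, 1.00 ± 0.10 with the lapatinib combination and 0.86 ± 0.10 with the nilotinib combination on the log2 scale (edgeR, adjusted p = 7.73e-07 and 4.05e-06), and it stayed higher with mitochondrial scaling at 0.86 and 0.79. HAS2 was less lowered in the combinations, by 0.98 ± 0.18 and 0.64 ± 0.18 (adjusted p = 0.000365 and 0.0127), the latter lost without replicate 2 of either group (adjusted p of up to 0.0585). TGFBR1 was higher by 0.55 and 0.64. ADAMTS1 was higher with the lapatinib combination at 0.58 ± 0.14 (adjusted p = 0.00443), and TWIST1 at 0.51 ± 0.12 (adjusted p = 0.00283, and 0.0888 with mitochondrial scaling).

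In the other direction, ZEB2, ADAMTS5 and THBS1 were further reduced in the combinations than at the high dose. The log2 difference of ZEB2 was −0.84 ± 0.14 and −0.76 ± 0.14 (edgeR, adjusted p = 0.000105 and 0.000325). That of ADAMTS5 was −0.66 ± 0.18 and −1.13 ± 0.19 (adjusted p = 0.00942 and 0.000151), the former lost without replicate 1 of either group (adjusted p of up to 0.0753). That of THBS1 was −0.95 ± 0.16 with the nilotinib combination (adjusted p = 0.000141) and −0.42 ± 0.16 with the lapatinib combination, a value that lost its call in 15 of 21 fits without 1 library. PLAU and PLAUR were lower with both combinations, between −0.51 and −0.24, of which the PLAU call with lapatinib was lost in 3 of 21 fits without 1 library (replicate 1 or 3 of the combination or replicate 2 of the high dose). No collagen was called between either combination and 1 μM THZ531, with values from −0.35 to 0.14. Replicate 1 was lowest for 13 of 13 collagens in both combinations and highest for 13 of 13 at the high dose, so differences could be missed. Without replicate 1 of any group, a choice made after these values were seen, 18 members were higher and 5 lower in the lapatinib combination than at the high dose. Without replicate 1 of the combinations alone, 7 were higher and 5 lower. Shares of all genes were not counted for these fits.

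The inhibitors themselves gave few differences between each other. Lapatinib and nilotinib were given at different doses, so a difference here is between 3.16 μM of one and 1 μM of the other. Lower with lapatinib than with nilotinib were 2 members, EDN1 at −0.48 ± 0.083 and VIM at −0.17 ± 0.039, beside 0.549% of all genes, and higher was 1, PLAT at 0.50 ± 0.098, beside 0.355% (edgeR, adjusted p = 0.00755, 0.0411 and 0.0142). The VIM call was lost in 11 of 21 fits without 1 library, the PLAT call in 4, the EDN1 call without lapatinib replicate 3 (adjusted p = 0.0689), and all 3 with mitochondrial scaling, on which 0.0624% of all genes were lower and 0.0374% higher. Lapatinib and nilotinib libraries of the same replicate number deviated together from their group means. The block fitted was 1 effect per replicate number shared by all 7 groups, some of which did not pair. For replicate 1, deviations with 1 μM THZ531 correlated at −0.633 with lapatinib, −0.748 with the lapatinib combination and −0.83 with the nilotinib combination. With this block 6 members were called, beside 0.823% lower and 0.486% higher among all genes. THBS1, LOXL1 and TGFB1, at 0.58, −0.21 and −0.21 in the fit without a block, were then added (edgeR, adjusted p = 0.0349, 0.0312 and 0.0308). Between the combinations 0 members were lower with lapatinib than with nilotinib, beside 0.736% of all genes, and ADAMTS1 was the 1 member higher, at 0.61 ± 0.14, beside 0.73% (adjusted p = 0.0376, lost in 13 of 21 fits without 1 library). The libraries of the combinations also deviated together by number, and with the block 4 members were called, beside 0.998% lower and 0.91% higher among all genes: ADAMTS1, THBS1 at 0.53, PLAU at 0.27 and TGFBR2 at −0.23 (adjusted p = 0.0363, 0.0485, 0.0352 and 0.033). At an unadjusted p under 0.05, 9 members differed between the combinations in the fit without a block, a count without its match over all genes.

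The effect of each combination was also compared with the sum of the effects of its components on the log2 scale, by an interaction term. With lapatinib, 9 members were lower and 27 higher than that sum, beside 32% and 28.2% of all genes, and with nilotinib 8 were lower and 22 higher, beside 31.2% and 25.6%. With mitochondrial scaling 12 and 9 members were lower, beside 44.4% and 40.1% of all genes, and 0 higher, beside 3.7% in each. PLAT had an interaction term of −1.75 ± 0.14 with lapatinib and −1.35 ± 0.14 with nilotinib (edgeR, adjusted p = 1.91e-09 and 7.77e-08). The term was −2.50 ± 0.26 and −2.31 ± 0.26 for HAS2 and −2.06 ± 0.25 and −1.91 ± 0.25 for ADAMTS5. It was −1.79 ± 0.19 and −1.62 ± 0.19 for ZEB2 and −0.91 ± 0.16 and −1.03 ± 0.17 for TWIST1. Among the collagens 8 and 7 of 13 were higher than the sum, led by COL12A1 at 1.13 ± 0.39 and 1.19 ± 0.39 (adjusted p = 0.0164 and 0.0127, the first lost without DMSO replicate 2 or replicate 2 of the combination), which was called in neither combination against DMSO. With mitochondrial scaling COL12A1 lay at 0.56 and 0.70 without a call.

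Other genes of the same pathways that are not members were counted from lists of their own, beside 37.8%, 37.3% and 36.8% of all genes lower and 34.3%, 33.7% and 33.1% higher. Of 18 tested genes for collagen folding and processing, such as the prolyl hydroxylases, 17, 15 and 17 rose with the lapatinib combination, the nilotinib combination and 1 μM THZ531 and 0 fell on the TMM scale, or 94.4%, 83.3% and 94.4% higher, while with mitochondrial scaling 0 rose. P4HA2, a prolyl 4-hydroxylase subunit, led them at 0.74, 0.76 and 0.69 on the TMM scale and 0.05, 0.14 and 0.15 with mitochondrial scaling. Of 10 genes of the YAP and TEAD pathway, which senses matrix stiffness, 7, 5 and 7 fell and 0, 1 and 2 rose, or 70%, 50% and 70% lower, with TEAD4 at −1.29 in the lapatinib combination and AMOTL2 at −1.39 and −1.66 in the others. With mitochondrial scaling 10, 10 and 8 of them fell and 0 rose. Of 25 other TGF-beta and SMAD genes, 8, 8 and 9 fell and 11, 11 and 8 rose on the TMM scale, which is 32%, 32% and 36% lower and 44%, 44% and 32% higher. With mitochondrial scaling 15, 15 and 16 fell and 6, 6 and 2 rose. ID2, an inhibitor of helix-loop-helix factors and a target of BMP signalling, rose by 2.62, 2.40 and 2.09 on the TMM scale and lay at 1.93, 1.77 and 1.53 with mitochondrial scaling, and SKIL, a repressor of SMADs, fell with the combinations, with a log2 FC of −1.80 and −1.79. With 0.1 μM THZ531, 3 of the 25 genes of this list rose on the TMM scale (12%, beside 1.78% of all genes), and 0 were called higher with mitochondrial scaling. Among the 3 was CCN2, a matrix-associated target of TGF-beta and YAP, by 0.40 ± 0.090 on the TMM scale (edgeR, adjusted p = 0.0111).

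Of 14 other integrin genes 3 fell with each strong treatment (21.4%) and 9, 9 and 10 rose (64.3%, 64.3% and 71.4%), with ITGB8 at −1.32, −0.85 and −0.86, and with mitochondrial scaling 0 rose. Of 16 other matrix proteases and inhibitors 2 fell with each (12.5%) and 9, 8 and 9 rose (56.2%, 50% and 56.2%) on the TMM scale, whereas with mitochondrial scaling 1, 0 and 0 rose. ADAMTS4, another aggrecanase, fell with a log2 FC of −1.16, −1.58 and −1.38. SERPINE2, an inhibitor of plasminogen activators, rose by 1.01, 0.91 and 0.85 on the TMM scale and lay at 0.32, 0.29 and 0.30 with mitochondrial scaling.

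The members were also described by length and promoter letters, which the choice of genes did not use. Their median genomic span was 49167 bp beside 31221 bp for 13747 protein-coding genes tested, and their median exonic length was 7383 bp beside 5341 bp. Across the 54 members the Spearman correlation of the log2 FC with genomic span was −0.04, 0.12 and 0.11 with the 3 strong treatments, beside −0.15, −0.10 and −0.11 over protein-coding genes. With mean log2 CPM it was 0.41, 0.31 and 0.45, beside 0.20, 0.22 and 0.17, and with exonic length −0.09, −0.07 and 0.05, beside −0.18, −0.15 and −0.15. These are descriptions over genes that share libraries. With 0.1 μM THZ531 the log2 FC correlated with exonic length at −0.59 over the members and −0.13 over 13619 protein-coding genes, and with genomic span at −0.45 and −0.10. Library deviations also correlated with transcript length, as given above, and their part in these values was not tested. RefSeq promoters were matched for 39 members, with 61 entries. An AP-1 motif (TGACTCA or TGAGTCA, on either strand) was found in 6.56% of them beside 4.95% of all 35116 promoters of this length, a TEAD motif (GGAATG) in 19.7% beside 14%, a SMAD CAGA box (CAGACA) in 21.3% beside 16.9%, an E-box (CACCTG) in 14.8% beside 20.6% and a TATA box (TATAAA) in 11.5% beside 7.33%. These matches describe letters only and were not tested.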

How the data were processed

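PolyA RNA of Hs578T cells was sequenced by the authors without strand information. Per the labels and the submitters' processing notes, reads were aligned to GRCh38 with HISAT2 2.1.0, and the deposited table holds raw read counts per gene (featureCounts) for 28395 Entrez gene IDs in 21 libraries, of which 27745 were matched to NCBI symbols. Unstranded counting cannot separate overlapping genes.

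Groups were taken from the labels. Genes were filtered with filterByExpr, libraries were scaled by TMM, and edgeR 4.0.16 (R 4.3.3) fitted 1 mean per group over all libraries. Contrasts were tested with its quasi-likelihood test, and p-values were adjusted by Benjamini-Hochberg over all 16036 genes, with calls at an adjusted p under 0.05. CPM are TMM-scaled and RPKM use exonic length from GENCODE v44. The method was tested on simulated counts in which a small set of genes rose and fell equally. That test did not cover the broad shifts of the strong treatments or the choice of scaling. Replicates of 1 group differed by more than sampling noise, so each counted once.

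Alternatives were RLE, library size, upper-quartile and mitochondrial mRNA scaling, no filter, at least 10 counts in every library, a replicate block, fitting only the groups compared, leaving out each library, and DESeq2 1.42.0. Fits without replicate 1 of several groups were added after seeing the data.

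Every member could be named. Values by library, in DMSO and the groups compared, were given for members among the 5 largest falls or rises with non-overlapping libraries against DMSO, for those called with a single drug or in an interaction, and for COL1A1, FN1, THBS1, TGFB2, EDN1, VIM and ZEB1. Other genes were named as the largest fall or rise of their list. Members and lists were chosen with earlier results of these data known. Replicate numbers were checked for pairing by the correlation of deviations from group means. Every r exceeded 0.1 between lapatinib and nilotinib (lowest 0.175) and between the combinations (lowest 0.417), so blocked calls are printed beside the result for these. For other comparisons blocked counts are given only as an alternative at the end. The block itself was fitted over all groups, also those that did not pair.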

Additional observations from a re-analysis of the deposited data

Results flagged for a closer look

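The effect of each combination on the members was compared with the sum of the effects of its components, and members differed by a test of that difference itself, the interaction term of edgeR's quasi-likelihood test. In the lapatinib combination 9 of 54 members were lower than the sum and 27 were higher, beside 32% and 28.2% of all genes. In the nilotinib combination 8 were lower and 22 were higher, beside 31.2% and 25.6%. Both directions together, the share of members that differed is near that of all genes. The higher members depended on the scaling, since 0 were higher in either combination with scaling to mitochondrial mRNAs.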

How the results depend on the processing

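Of the members' log2 FC values, the falls of HAS2, ADAMTS5, ZEB2, TWIST1, PLAT and THBS1 with the 3 strong treatments kept their direction with the other scalings (RLE, library size alone, upper quartile and mitochondrial mRNAs), although THBS1 with 1 μM THZ531 was not called with upper-quartile scaling (THBS1 log2 FC −0.30, edgeR adjusted p = 0.0769). With scaling to mitochondrial mRNAs the log2 FC of 39, 37 and 33 members changed sign with the lapatinib combination, the nilotinib combination and 1 μM THZ531, and that of 12 and 15 in the lapatinib and nilotinib interactions. Those among them that were called with TMM or with mitochondrial scaling were, with the lapatinib combination, COL1A1 −0.0826, COL1A2 −0.11, COL6A1 −0.20, COL8A1 −0.54, THBS2 −0.65, SPARC −0.0138, FBN1 −0.33, LAMB1 −0.17, LAMC1 −0.24, LOX −0.19, LOXL1 −0.054, LOXL2 −0.24, TIMP1 −0.18, TIMP2 −0.11, TIMP3 −0.60, MMP14 −0.50, ADAMTS1 −0.43, ADAMTS12 −0.20, TGFB1 −0.17, TGFBI −0.16, TGFBR1 −0.39, EDN1 −0.49, ITGA5 −0.39, ITGB1 −0.11, VIM −0.17, SNAI2 −0.17, ZEB1 −0.26 and CDH2 −0.0745. With the nilotinib combination they were COL1A2 −0.20, COL3A1 −0.14, SPARC −0.0414, TNC −0.10, FBN1 −0.20, LAMB1 −0.22, LAMC1 −0.17, LOX −0.11, LOXL1 −0.0332, TIMP1 −0.29, TIMP2 −0.18, TIMP3 −0.38, ADAMTS12 −0.17, TGFB1 −0.11, TGFBI −0.13, TGFBR1 −0.25, TGFBR2 −0.54, EDN1 −0.15, VCAN −0.62, ITGA5 −0.32, ITGB1 −0.18, VIM −0.13, SNAI2 −0.24, ZEB1 −0.0912 and CDH2 −0.0269. With 1 μM THZ531 they were COL6A3 −0.0707, SPARC −0.0293, FBN1 −0.18, LAMA4 −0.0723, LAMC1 −0.0777, LOX −0.0854, TIMP1 −0.11, TIMP2 −0.0299, TIMP3 −0.18, MMP1 −0.12, MMP14 −0.22, ADAMTS12 −0.0797, PLAUR −0.50, TGFB1 −0.0262, TGFB2 −0.51, TGFBI −0.029, EDN1 −0.32, VCAN −0.40, ITGA5 −0.16, ITGB1 −0.14, VIM −0.0485, ZEB1 −0.34 and CDH2 −0.0153. In the lapatinib interaction they were LOX −0.12, MMP14 −0.17, TGFB1 −0.0826, TGFBI −0.00483, EDN1 −0.13 and SNAI2 −0.12. In the nilotinib interaction they were LOX −0.0384, TGFB1 −0.20, VIM −0.055 and ZEB1 −0.0208. Without composition scaling, by library size alone, the log2 FC values called on either scale that changed sign were TIMP3 −0.24, TGFBR1 −0.0315, EDN1 −0.14 and ITGA5 −0.032 with the lapatinib combination, TIMP3 −0.0576, TGFBR2 −0.21 and VCAN −0.30 with the nilotinib combination, PLAUR −0.22 and EDN1 −0.017 with 1 μM THZ531, and with upper-quartile scaling TGFBR2 0.0145 with the lapatinib combination.

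Counts of members called moved by more than 1.5 times as follows. With mitochondrial scaling 20, 18 and 16 members were lower and 0 higher with the lapatinib combination, the nilotinib combination and 1 μM THZ531, and by library size alone 9, 8 and 9 were higher. The interactions held 0 higher members with mitochondrial scaling and 8 and 11 by library size alone, and the nilotinib interaction 34 with upper-quartile scaling. With 0.1 μM THZ531 the members lower were 2 (COL8A1 and ITGB1) and those higher 2 when only the groups compared were fitted, those higher 0 with mitochondrial scaling and 2 with DESeq2. The member higher with nilotinib was lost (0) by library size alone, with mitochondrial scaling, without a filter and with only the groups compared. Against 1 μM THZ531, fitting only the groups compared left 2 lower and 3 higher in the lapatinib combination and 2 higher in the nilotinib combination, where library size alone, upper-quartile and mitochondrial scaling left 3 higher. Between lapatinib and nilotinib 0 members were called with mitochondrial scaling and 8 with DESeq2. Between the combinations 2 were called by library size alone or with at least 10 counts in every library, 0 with mitochondrial scaling or only the groups compared, and 5 with DESeq2. The causes were not tested beyond the construction of each scaling.

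Leaving out 1 library at a time, or replicate 1 of several groups, gave these ranges of counts. With 0.1 μM THZ531 they were 0 to 1 lower and 1 to 2 higher, and with nilotinib 0 to 4 lower and 0 to 1 higher. The members higher were 22 to 39, 22 to 37 and 19 to 36 with the 3 strong treatments, and those lower 8 to 9, 8 to 10 and 7 to 9. Against 1 μM THZ531 the ranges were 4 to 6 lower and 5 to 18 higher in the lapatinib combination, and 5 to 7 lower and 2 to 9 higher in the nilotinib combination. They were 0 to 6 between the inhibitors, 0 to 3 between the combinations, 8 to 9 lower and 23 to 38 higher in the lapatinib interaction, and 8 to 9 lower and 17 to 34 higher in the nilotinib interaction. The fits without replicate 1 of all groups, or of both combinations, were chosen after seeing the data.

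Over all 21 pairs of groups the replicate numbers did not pair the libraries: deviations of libraries with the same number correlated at a mean r of 0.152 beside −0.0694 for different numbers, and 8 of 21 libraries correlated best with their own number. The 6 pairs with every r over 0.1 were those among lapatinib, nilotinib and the combinations, for which the blocked calls stand beside the result. With the replicate number as a block, 9, 10 and 7 members were lower and 30, 29 and 35 higher with the 3 strong treatments. The block gave 1 lower (COL8A1, adjusted p = 0.0492) and 2 higher with 0.1 μM THZ531, 6 between the inhibitors, 4 between the combinations, and 34 and 28 higher in the interactions. Neither DMSO nor 1 μM THZ531 paired with any other group. Shares of all genes were not counted for the blocked comparisons with DMSO or the blocked interactions, so those counts stand without a comparison. FBN2 was the member whose counts were too low for a test.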
